A study of Sus scrofa with 6 samples.

Results

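Membrane carriers of organic ions, nucleosides, bile acids and drugs were followed in cultured fetal pig testis cells with and without a stable form of vitamin C. The set comprised every row of the deposited count table whose gene symbol starts with SLC22A, SLC47A, SLCO, SLC28A, SLC29A, SLC51, ABCB, ABCC or ABCG, which gave 46 of 17670 genes, 26 solute carriers and 20 ATP-binding cassette (ABC) genes. Of these, 31 had enough counts to be tested and 15 did not. The set follows symbols only, so family members filed under other names are outside it, and ABCB1, ABCC4, SLC22A5, SLC47A1 and SLC28A3 were not analysed here.

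Solute carriers of the SLC22, SLC47 and SLCO families move charged or bulky organic molecules such as neurotransmitters, urate, prostaglandins, steroid conjugates, toxins and many drugs across the plasma membrane, driven by the membrane potential or by exchange for another solute. ABC transporters use ATP, and most members of the B, C and G groups push their substrates out of the cell or across an organelle membrane. In kidney tubule, liver and gut epithelium both kinds work in series, with uptake at one face of the cell and efflux at the other. In the testis they take part in what crosses the Sertoli cell layer, including nucleosides, steroids and drugs.

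The series held 6 RNA-seq libraries of cells labelled as immature Sertoli cells, from pig testes at 80 to 90 days of gestation. Control cells formed 3 of them, and cells given 250 µM L-ascorbic acid 2-phosphate (AA2P), as its magnesium salt, after 6 h of culture formed the other 3. The sources used here give neither the length of the treatment nor what the control cultures received in its place. They also do not say whether replicates stem from different cultures or litters, so the p-values speak only to the variation among these libraries, which may be technical. Counts per library summed to 18747307 to 23521291.

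The label was checked against marker genes, in CPM (read counts scaled to a common library size with TMM factors). Among Sertoli markers INHA, DHH and NR5A1 had means of 0.152 CPM or less in either group, near or under the level of 3 counts (0.123 to 0.165 CPM), the anti-Müllerian hormone gene AMH stood at 36.4 ± 1.52 CPM in controls and 34.5 ± 2.35 with AA2P (SD, n = 3), and SOX9 fell from 11.6 ± 0.648 to 2.22 ± 0.459. Of the 12 Sertoli markers with a row, 8 were tested, 6 fell and 1 rose. The marker that rose was TF, from 0.238 ± 0.125 to 2.91 ± 1.13 CPM (SD, n = 3). The summed level of the 12 was 5535 to 5976 CPM in control and 2021 to 2642 CPM in AA2P libraries. CLU carried most of that sum, and without it the range was 1498 to 1638 CPM in control and 944 to 1046 CPM in AA2P libraries. Most of what remained in controls came from keratin genes, KRT8 at 1123 ± 65.7 CPM and KRT18 at 372 ± 12.5 CPM (SD, n = 3). With AA2P they stood at 723 ± 37.8 and 218 ± 22.5 CPM. WT1 was far lower, at 40.7 ± 4.21 CPM in controls and 23.8 ± 4.20 with AA2P. Kidney and mesonephric tubule markers were present in both groups, with a summed level of 2371 to 2467 CPM in controls and 3536 to 3993 CPM with AA2P. Most of the control sum was CDH6, at 1787 ± 26.0 CPM (SD, n = 3), and without it the range was 614 to 667 CPM in controls and 1584 to 1952 CPM with AA2P. Of their 18 measured members 17 were tested, 16 rose and 1 fell, and UMOD was at 0 in every control library. The endocytic receptor LRP2 rose from 80.1 ± 14 to 638 ± 144 CPM and the phosphate carrier SLC34A1 from 32.1 ± 4.47 to 182 ± 23.0 CPM (SD, n = 3). Several transporters below are also known from kidney tubule, and the part of this marker shift in their changes was not tested. In bulk RNA, a change in the number of cells of a type and a change in the RNA per cell cannot be told apart. Of 14 tested markers of Leydig, smooth muscle, stromal, endothelial, macrophage, germ and liver cells 5 rose (AIF1, PECAM1, NR2F2, CNN1 and APOA1) and 6 fell. Among these lists CSF1R, CD163, PDGFRB, CYP17A1 and INSL3 had means of 0.0367 CPM or less, while other members were present: STAR at 5.70 ± 0.131 CPM in controls and 6.68 ± 0.565 with AA2P (SD, n = 3), COL3A1 at 74.8 ± 1.41 and 35.5 ± 4.97, and COL1A1 at 21.0 ± 1.32 and 8.25 ± 2.27. The smooth muscle markers TAGLN and DES stood at 375 ± 5.44 and 39.1 ± 1.92 CPM in controls. With AA2P they were at 307 ± 25.2 and 8.35 ± 1.83 CPM.

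More transporter genes were higher than lower with AA2P. The quasi-likelihood test of edgeR was adjusted by Benjamini and Hochberg over all 12701 tested genes, with a threshold of 0.05. It called 21 of the 31 tested members (67.7%), where 52.1% of all tested genes were called. Of the members 16 (51.6%) rose and 5 (16.1%) fell, where 26% of all tested genes rose and 26.1% fell. At least 2-fold increases were called for 8 members, 25.8% of those tested, against 5.53% of all tested genes, and 1 member fell at least 2-fold, against 3.48%. The median log2 fold change of the members was 0.37, ranging from -1.02 to 3.97, and that of all tested genes was 0.00. The values of the 3 control and the 3 AA2P libraries were fully apart in 25 of the 31, and in 59.3% of all tested genes. Members reach the test more easily if they are high in 1 group, so these counts describe the 31 and not the 46. SLC47A2 and SLC51B, both among the 8, passed the filter through their AA2P libraries only. The split of all genes depends on scaling: scaled by library totals and not by TMM factors, 45.1% of all tested genes were called higher and 14.3% lower, the median of all genes moved by 0.17, and 19 members rose and 4 fell.

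**Figure D1:**
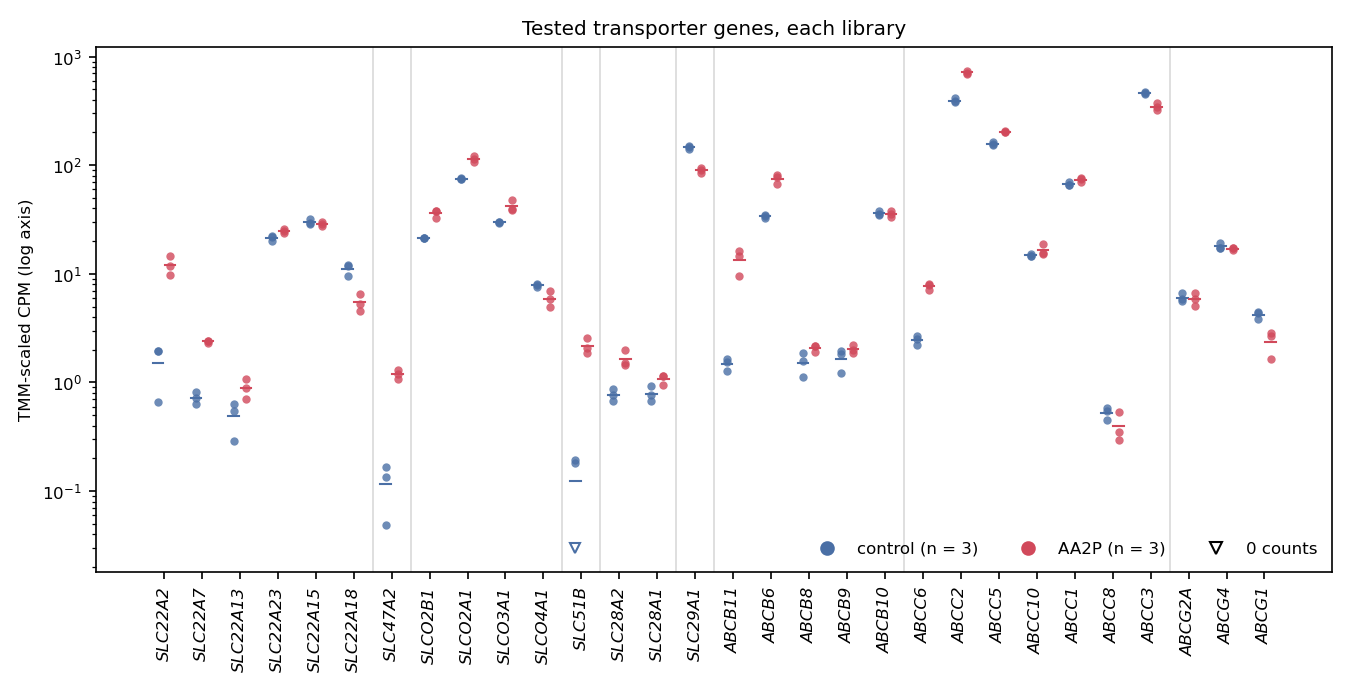
TMM-scaled CPM (log axis) of 30 of the 31 tested transporter genes in each of the 3 control and 3 AA2P libraries, grouped by family, with a bar at each group mean and an open triangle for a library with 0 counts. SLC22A2, SLC47A2, SLC51B and ABCB11 show the widest gaps between groups, and levels of different genes are not scaled for transcript length.

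The organic cation carriers SLC22A2 and SLC47A2 rose. SLC22A2 encodes OCT2, the uptake carrier for cations such as creatinine and metformin at the blood side of kidney tubule cells. It stood at 1.94, 0.661 and 1.94 CPM in control libraries 1 to 3 and at 14.5, 11.8 and 9.78 CPM in AA2P libraries 1 to 3. The groups were far apart, control library 2 was lowest, and AA2P library 3 lay nearest the controls. The increase was 7.70-fold, with a log2 fold change of 2.94 (SE 0.23) and an adjusted p of 2.0e-08 by edgeR's quasi-likelihood test. SLC47A2, of the MATE family that exchanges cations for protons at the luminal side, had 3, 3 and 1 reads in control libraries and 26, 24 and 26 in AA2P libraries. Every AA2P library was above every control, from 0.116 ± 0.0606 CPM, under the level of 3 counts, to 1.19 ± 0.117 CPM (SD, n = 3). The ratio of the summed counts was 10.3, with an exact 95% interval of 4.74 to 26.4 that covers counting error only, and the adjusted p was 5.9e-06 by edgeR's quasi-likelihood test. Only the AA2P libraries reached the filter's minimum count of 10, so SLC47A2 was tested because it was high there.

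Carriers of organic anions and the orphan members of SLC22A moved in both directions. SLC22A7 encodes OAT2, an organic anion carrier of liver and kidney, and was at 0.631, 0.716 and 0.825 CPM in controls and 2.40, 2.33 and 2.42 CPM with AA2P. The AA2P libraries were nearly equal to each other, and the increase was 3.29-fold with an adjusted p of 1.1e-05 by edgeR's quasi-likelihood test. SLC22A18, an orphan carrier, fell at least 2-fold, the one member to do so. It had 11.8, 12.2 and 9.51 CPM in controls and 4.56, 5.25 and 6.57 CPM with AA2P, with no overlap, a log2 fold change of -1.02 (SE 0.14) and an adjusted p of 1.4e-05 by edgeR's quasi-likelihood test. SLC22A13, a urate and nicotinate exchanger, and the orphan SLC22A23 passed narrowly with edgeR adjusted p-values of 0.0483 and 0.0250. SLC22A13 had an adjusted p of 0.204 without control replicate 3, 0.0795 without control replicate 2, 0.0955 without AA2P replicate 2 and 0.158 without AA2P replicate 3. SLC22A23 missed the threshold without control replicate 1 (adjusted p 0.0517), control replicate 3 (0.108), AA2P replicate 2 (0.0545) or AA2P replicate 3 (0.0636), and SLC22A15 was not called, at 29.9 ± 1.57 CPM in controls and 28.7 ± 1.01 with AA2P (SD, n = 3). With the replicate number as a block SLC22A13 had an adjusted p of 0.0690.

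Among the organic anion transporting polypeptides 3 of the 4 tested SLCO genes rose, each by less than 2-fold, and 1 fell. The shares of all tested genes were 26% higher and 26.1% lower. SLCO2A1 encodes the prostaglandin transporter, which clears prostaglandins from outside the cell. Its level was 76.3, 73.9 and 74.3 CPM in controls and 113.7, 121.8 and 106.3 CPM with AA2P. The controls lay close together, every AA2P library was higher, and the log2 fold change was 0.60 (SE 0.06) with an adjusted p of 1.8e-07 by edgeR's quasi-likelihood test. SLCO2B1, a carrier of steroid sulfates and statins, rose 1.69-fold from 21.3 ± 0.115 to 36.1 ± 2.69 CPM (SD, n = 3). SLCO3A1 rose 1.40-fold from 29.9 ± 0.481 CPM. SLCO4A1, which carries thyroid hormone among other anions, fell from 7.86 ± 0.298 to 5.92 ± 1.02 CPM with an edgeR adjusted p of 0.0189. That call was lost with library totals (0.144), without control replicate 3 (0.0616), without AA2P replicate 1 (0.0816) and without AA2P replicate 2 (0.0501).

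Among bile acid carriers, SLC51B and ABCB11 rose and SLC51A was hardly counted. SLC51B is the beta subunit of the organic solute transporter, a basolateral exporter of bile acids and steroid conjugates that needs both its subunits. It had 4, 0 and 4 reads in control libraries and 51, 42 and 45 in AA2P libraries, or 0.125 ± 0.108 and 2.16 ± 0.359 CPM (SD, n = 3). Its log2 fold change of 3.97 (SE 0.42) was the highest of the tested members, with an adjusted p of 7.0e-07 by edgeR's quasi-likelihood test, and the ratio of summed counts was 16.3, with an exact 95% interval of 8.04 to 38.5 for counting error only. SLC51B too reached the filter's minimum count of 10 in AA2P libraries only, so it was tested because it was high there. The alpha subunit SLC51A had at most 1 read in any library of either group. ABCB11 encodes the bile salt export pump, known from the canalicular membrane of hepatocytes. Its level was 1.26, 1.65 and 1.55 CPM in controls and 16.1, 14.6 and 9.53 CPM with AA2P. Again AA2P library 3 was the lowest of its group and still far above the controls. The 8.96-fold increase had an adjusted p of 3.0e-09 by edgeR's quasi-likelihood test. The 6 measured hepatocyte markers summed to 96.2 to 109.7 CPM in control and 162.6 to 167.1 CPM in AA2P libraries, and their part in this result was not tested. Among them ALB, APOB, TTR and AHSG were at means of 0.195 CPM or less in both groups and APOA1 rose from 103 ± 7.30 to 164 ± 2.24 CPM (SD, n = 3).

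Among nucleoside carriers, the equilibrative SLC29A1 fell and the concentrative SLC28A2 rose. SLC29A1 encodes ENT1, which lets nucleosides run down their gradient in either direction. It was at 151.0, 145.8 and 142.4 CPM in controls and 84.0, 90.3 and 94.7 CPM with AA2P. No AA2P library came near a control, and the log2 fold change was -0.71 (SE 0.05) with an adjusted p of 1.7e-08 by edgeR's quasi-likelihood test. The SLC28A proteins instead concentrate nucleosides with sodium. SLC28A2, which prefers purine nucleosides, rose 2.12-fold from 0.676, 0.772 and 0.874 CPM in controls to 1.45, 1.98 and 1.52 CPM with AA2P (edgeR adjusted p 0.00220). SLC28A1, which prefers pyrimidines, was at 0.790 ± 0.124 and 1.08 ± 0.112 CPM (SD, n = 3) and was not called (edgeR adjusted p 0.176).

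The multidrug resistance proteins of the ABCC group, which export conjugates of glutathione, glucuronate and sulfate, included a rising and a falling pump at high counts. ABCC2 encodes MRP2, the pump of the luminal membrane of hepatocytes and kidney tubule cells. Its level was 389, 378 and 411 CPM in controls and 739, 708 and 696 CPM with AA2P. The replicates lay within a few percent of their means, the increase was 1.82-fold, and the adjusted p of 5.1e-10 was the smallest of the tested members by edgeR's quasi-likelihood test. ABCC3 encodes MRP3, a pump of the basolateral membrane, and had 470.0, 465.6 and 451.1 CPM in controls and 321.1, 339.7 and 371.7 CPM with AA2P. It fell 1.34-fold with no overlap between the groups and an edgeR adjusted p of 6.4e-06. ABCC5, an exporter of cyclic nucleotides, rose 1.30-fold from 157 ± 5.88 to 204 ± 2.22 CPM (SD, n = 3).

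ABCC6 and ABCC1 are neighbours in the Sscrofa11.1 RefSeq annotation and differed in the size of their change. ABCC6, whose loss causes pseudoxanthoma elasticum with calcified elastic tissue, was at 2.66, 2.20 and 2.52 CPM in controls and 7.91, 7.98 and 7.07 CPM with AA2P. Both groups were tight, and the increase was 3.08-fold with an edgeR adjusted p of 7.6e-08. ABCC1 encodes MRP1, a broad efflux pump, and was at 65.9, 69.4 and 65.5 CPM in controls and 70.4, 76.1 and 74.0 CPM with AA2P. Its 1.10-fold increase passed narrowly, with an edgeR adjusted p of 0.0494. That call was lost without control replicate 1 (0.146), control replicate 2 (0.0639), control replicate 3 (0.155), AA2P replicate 2 (0.185) or AA2P replicate 3 (0.0562), and with the replicate block (0.0838). The difference between the changes of the 2 genes was not tested. ABCC10, a further efflux pump, and ABCC8, the sulfonylurea receptor of potassium channels, were not called, and library totals brought ABCC10 past the threshold (0.00600).

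The ABCB group held 2 genes that rose (33.3%) and 4 that were not called, where 26% of all tested genes rose and 52.1% were called. ABCB6 transports porphyrins. Its level was 34.0, 35.1 and 32.6 CPM in controls and 77.4, 81.2 and 66.9 CPM with AA2P. All AA2P libraries stood well above the controls, and the log2 fold change was 1.15 (SE 0.07) with an adjusted p of 1.5e-09 by edgeR's quasi-likelihood test. The mitochondrial member ABCB10 was at 36.2 ± 1.78 and 35.6 ± 2.46 CPM (SD, n = 3) and was not called. ABCB8, also mitochondrial, and ABCB9, a peptide transporter of lysosomes, had log2 fold changes of 0.47 (SE 0.22) and 0.28 (SE 0.22). With library totals ABCB8 passed the threshold, with an adjusted p of 0.0222.

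None of the 3 tested ABCG genes rose, where 26% of all tested genes did, and ABCG5 and ABCG8 had too few counts to test. ABCG1, which moves cholesterol to lipoproteins, fell from 3.88, 4.41 and 4.37 CPM in controls to 2.65, 2.82 and 1.64 CPM with AA2P. The groups did not overlap, AA2P library 3 was the lowest, and the log2 fold change was -0.84 (SE 0.19) with an edgeR adjusted p of 0.00163. ABCG4, a close relative, was at 17.9 ± 1.09 and 17.0 ± 0.478 CPM (SD, n = 3). The gene listed as ABCG2A was at 6.05 ± 0.495 and 5.88 ± 0.818 CPM and was not called either.

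**Figure D2:**
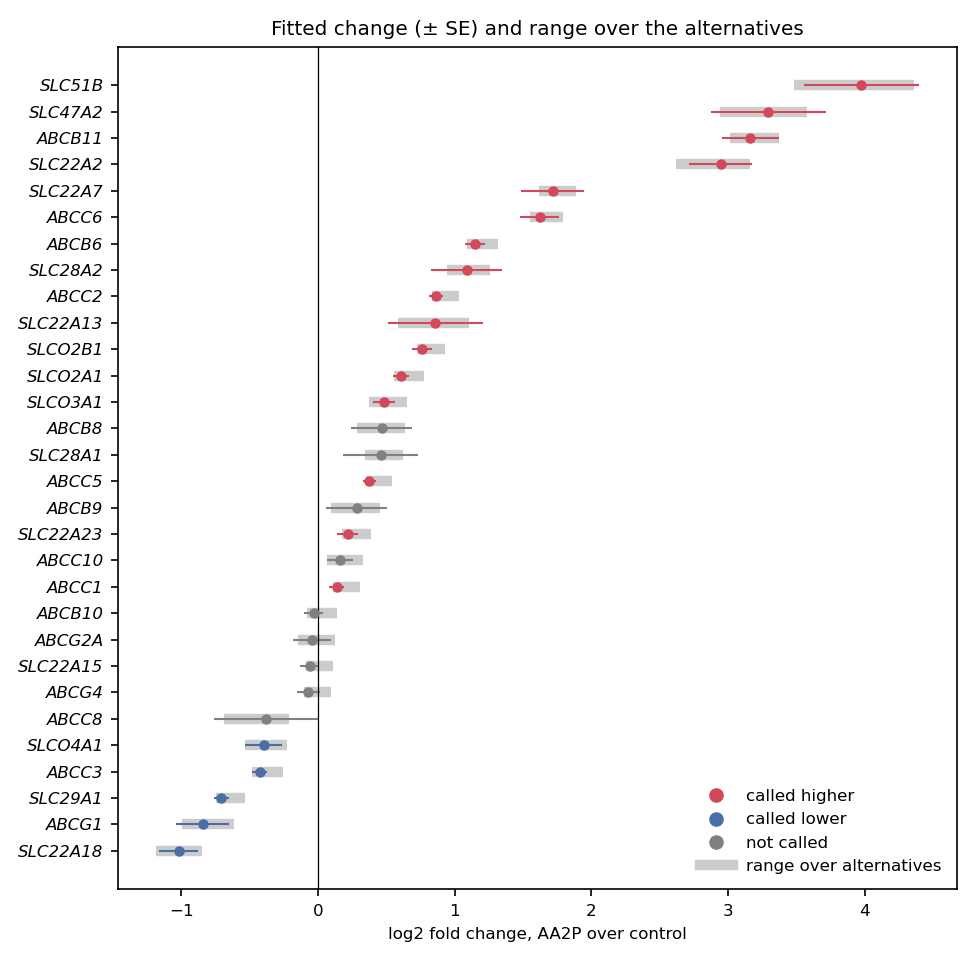
Log2 fold change of AA2P over control for 30 of the 31 tested transporter genes, with the standard error of the fit as thin lines and the range over the other scalings, filters, tests, block and left-out libraries as grey bars. The values run from -1.02 for SLC22A18 to 3.97 for SLC51B, and the grey bars of the 9 genes called at 2-fold or more stay on one side of 0.

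The 15 members without enough counts include well-known kidney and liver carriers. The organic anion carriers SLC22A6 (OAT1) and SLC22A8 (OAT3) and the urate exchanger SLC22A12 (URAT1) had at most 1, 3 and 1 reads in any library. In 11 of the 15 no library exceeded 3 reads, and the highest count was 10, in ABCC11. Among others SLC22A4, SLC22A8, SLC22A14 and SLCO4C1 had no read in the control libraries and at least 1 in each AA2P library, with 1, 5 and 4 for SLC22A4. That pattern held for 5 of the 15 members, against 106 of all 4969 genes too low to test (2.13%), and the opposite pattern for 0 members and 37 genes. When no filter was applied SLC22A4 and SLC22A14 passed edgeR's test with adjusted p-values of 0.0129 and 0.0462. SLC22A8 and SLCO4C1 did not pass it, with 0.107 and 0.0701. These genes were named for having no control read, so the p-values add no separate support. No fold is given, because both groups lie at or near the level of 3 counts. SLC22A14 lies next to SLC22A13, SLC22A6 next to SLC22A8, ABCC11 next to ABCC12, and ABCG5 next to ABCG8 in the Sscrofa11.1 annotation, and each of these pairs has at least 1 gene below the filter.

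**Figure D3:**
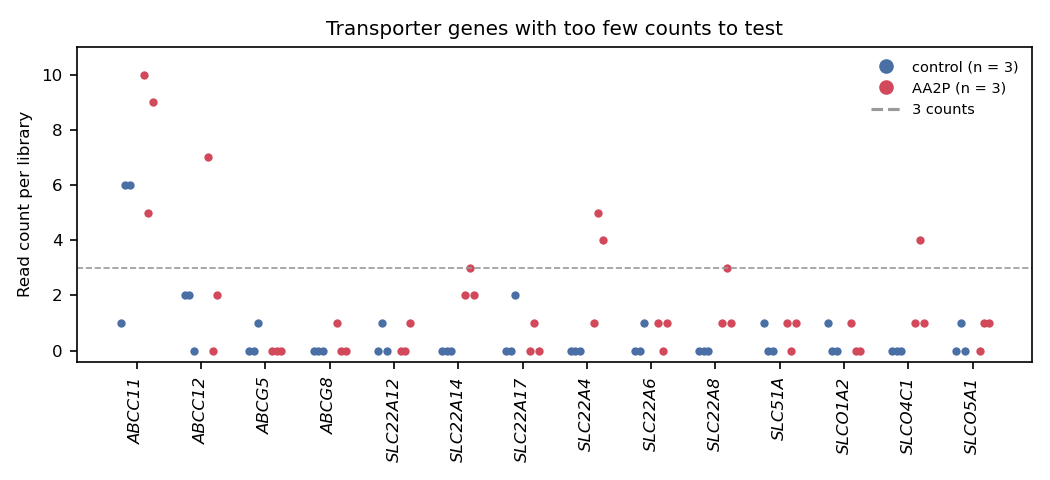
Read counts per library of 14 of the 15 transporter genes that were too low to test, with a dashed line at 3 counts. SLC22A4, SLC22A8, SLC22A14 and SLCO4C1 have 0 in the 3 control libraries and at least 1 in each AA2P library.

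Across the set, AA2P library 3 was often the least changed. It lay nearest the controls among the AA2P libraries in 14 of the 21 called members and in 7 of the 9 called at 2-fold or more. The share of all called genes with this order was not counted, so it is not shown to be particular to the set. Over all genes the mean correlation of AA2P library 3 with the control libraries was 0.970, against 0.959 and 0.961 for libraries 1 and 2. Without it 13 members were called higher and 5 lower, and the log2 fold changes of SLC22A2, SLC47A2, SLC51B and ABCB11 were 3.08, 3.37, 4.08 and 3.37.

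Of the 15 tested SLC members 10 rose and 3 fell, with a median log2 fold change of 0.60, and of the 16 tested ABC members 6 rose and 2 fell, with a median of 0.15. Among the 219 other tested solute carriers 39.3% rose, 23.3% fell and 17.8% rose at least 2-fold, with a median of 0.09. For all tested genes these shares were 26%, 26.1% and 5.53%. Among the 12 tested genes of the ABCA, ABCD, ABCE and ABCF groups 2 rose and 2 fell, with a median of -0.05. With library totals 5 of them rose and 1 fell, 1 rose without control replicate 1, control replicate 2 or AA2P replicate 2, with the DESeq2 Wald test, with the filter at 1 CPM or with the replicate block, and 1 fell without control replicate 2. ABCA1, the cholesterol exporter, fell from 494 ± 33.4 to 281 ± 25 CPM (SD, n = 3), as ABCG1 did. The differences between these groups of genes were not tested.

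**Figure D4:**
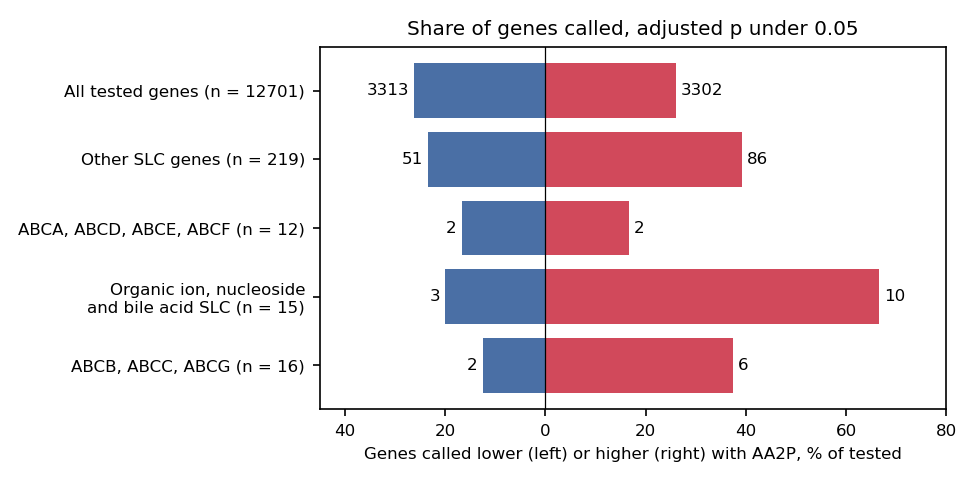
Percent of tested genes called higher (right) and lower (left) with AA2P at an edgeR adjusted p under 0.05, for all genes, other solute carriers, other ABC groups and the SLC and ABC members of the transporter set, with the number of genes at each bar. The SLC members reach 66.7% higher against 26% of all genes, on 15 genes.

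Carriers at the luminal face are held by PDZ scaffolds, and of 9 tested scaffold and linker genes 5 rose and 2 fell, where 26% and 26.1% of all tested genes did. With library totals 6 rose and 0 fell. NHERF1 rose from 58.9 ± 3.83 to 145 ± 8.34 CPM, PDZK1 from 3.72 ± 2.25 to 53.9 ± 15.1, NHERF2 from 23.7 ± 1.60 to 47.4 ± 2.84 and MAGI3 from 124 ± 2.76 to 192 ± 12.8 (SD, n = 3). Of 9 tested genes that set the ion and dicarboxylate gradients 4 rose and 3 fell. The sodium-proton exchanger SLC9A3, whose protons feed MATE exchange, rose from 0.273 ± 0.115 to 3.68 ± 0.989 CPM and the sulfate carrier SLC13A1 from 4.47 ± 1.06 to 10.2 ± 1.14. The carbonic anhydrase CA12 fell from 34.9 ± 1.16 to 18.6 ± 1.75 CPM.

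Of 18 tested transcription factors known to control transporter genes, 7 rose (38.9%) and 5 fell (27.8%), where 26% and 26.1% of all tested genes did. The median log2 fold change of the 18 was 0.08. HNF4A, a regulator of liver and kidney tubule genes, rose from 38.6 ± 3.92 to 155 ± 21.1 CPM (SD, n = 3) and FOXA1 from 33.1 ± 0.127 to 71.4 ± 2.93. NR1H4 encodes the bile acid receptor FXR, known to switch on ABCB11 and the SLC51 genes in liver and gut, and fell from 40.9 ± 3.65 to 30.0 ± 3.34 CPM with an edgeR adjusted p of 0.000343. NFE2L2, which encodes the NRF2 factor known to induce ABCC genes, fell from 106 ± 3.16 to 81.8 ± 1.03 CPM. Whether any of these factors had a part in the transporter changes was not tested.

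**Figure D5:**
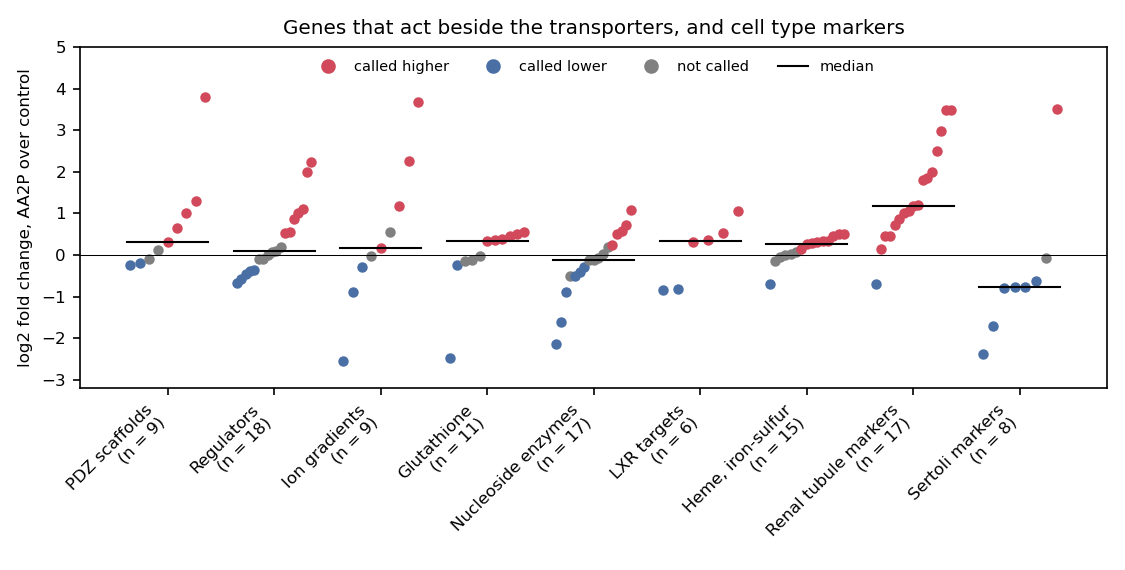
Log2 fold change of AA2P over control for tested genes that act beside the transporters and for 2 marker lists, each point a gene, coloured by its call, with a line at the list median. ABCG1, in the LXR list, is itself a member of the transporter set. The renal tubule markers have a median of 1.18 and the Sertoli markers one of -0.77, and the other lists have medians between -0.11 and 0.33.

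Enzymes that handle the transported substrates went both ways, where 26% of all tested genes rose and 26.1% fell. Of 11 tested glutathione genes, which supply substrates of the ABCC pumps, 6 rose and 2 fell, and 1 fell with library totals, without control replicate 3 or without AA2P replicate 2. GCLC, the first enzyme of glutathione synthesis, rose from 56.5 ± 0.783 to 83.0 ± 1.68 CPM (SD, n = 3), GSTA4 from 39.8 ± 1.15 to 56.8 ± 4.63 and MGST3 from 33.6 ± 1.00 to 46.3 ± 3.59, and the cystine carrier SLC7A11 fell from 115 ± 7.32 to 20.4 ± 7.26. Of 17 tested nucleoside enzymes 5 rose (29.4%) and 6 fell (35.3%). Uridine phosphorylase UPP1 fell from 20.9 ± 2.94 to 4.68 ± 0.682 CPM and the purine enzyme PNP from 83.8 ± 6.38 to 44.9 ± 2.65, and the uridine-cytidine kinase UCK1 and the deaminase AMPD2 rose from 22.6 ± 2.09 to 36.9 ± 2.39 and from 42.1 ± 1.30 to 59.6 ± 0.783.

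Heme genes make the porphyrins that ABCB6 carries. Of 15 tested heme and iron-sulfur genes 9 rose and 1 fell, where 26% and 26.1% of all tested genes did. The median log2 fold change of the 15 genes was 0.27. Only 5 rose without control replicate 3 or without AA2P replicate 2, and 5 at an adjusted p of 0.01. Ferrochelatase FECH rose from 40.7 ± 1.11 to 57.7 ± 1.48 CPM (SD, n = 3), the scaffold ISCU from 62.7 ± 2.67 to 89.6 ± 4.17 and CPOX from 86.5 ± 2.46 to 109 ± 4.50, and heme oxygenase HMOX1 fell from 18.7 ± 1.94 to 11.4 ± 2.43. All 6 tested targets of the sterol receptor LXR were called, 4 higher and 2 lower, where 52.1% of all tested genes were called. ABCG1 on this list is itself a member of the transporter set. NR1H3, itself an LXR gene, rose from 2.91 ± 0.228 to 4.23 ± 0.321 CPM (SD, n = 3). The 2 that fell were the exporters ABCA1 and ABCG1, and SCD, LPCAT3 and SREBF1, which act in lipid synthesis, rose from 116 ± 5.94 to 243 ± 34.2 CPM, from 37.7 ± 2.19 to 48.4 ± 1.29 CPM and from 69.4 ± 4.33 to 86.1 ± 5.71 CPM.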

How the data were processed

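Per the labels' protocols, total RNA of 3 control and 3 AA2P libraries was sequenced on a HiSeq X-Ten. Reads were handled with bcl2fastq and the aligner HISAT2 2.0.5, per the submitters' processing notes. The sources used here give no counting tool, strand setting, annotation or build, so genes with near-identical copies or overlapping neighbours are uncertain and no coordinates are printed. The authors deposited raw read counts per pig Ensembl gene, not normalized. A gene name table gave symbols for 13141 of 17670 identifiers.

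Counts were tested in R 4.3.3 with edgeR 4.0.16 (TMM factors, filterByExpr, group as the only term, quasi-likelihood F test, Benjamini-Hochberg adjustment over 12701 genes). Standard errors were derived from the log2 fold change and its F statistic. Replicates of a group differed beyond sampling noise (chi-square per degree of freedom 2.63 to 11.5). On simulated counts for AA2P against control, with 12590 genes passing the filter, the test found 31 of 49 genes with a simulated log2 change of 0.5, 47 of 49 with one of 1, all 50 with one of 2 and all 50 with one of 3. False calls made up 6.81%. Only these genes were changed in the simulation, about as many up as down, and library sizes were used without TMM factors. In the data 52.1% of all tested genes were called, so these rates may not hold for them.

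The alternatives were DESeq2 size factors, library totals, no filter, a filter at 1 CPM in 3 libraries, the Wald test of DESeq2 1.42.0, voom in limma 3.58.1, a replicate block, each library left out, and an adjusted p of 0.01. Members, gene lists and markers were chosen with earlier results of these data known. Full values were set by rule for members called at 2-fold or more, the 5 smallest p-values and well-known carriers, and up to 4 called genes by smallest p from each list. Other members, NR1H4, NFE2L2, ABCG1 and the marker genes named were chosen after their values were seen. A few members and list genes are not reported here. Sequence features could not be described, since no sequence table was used here.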

Additional observations from a re-analysis of the deposited data

How the results depend on the processing

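Over 14 alternatives the number of members called higher stayed between 13 and 19, against 16, and the number called lower between 4 and 5, against 5. Leaving out 1 library gave 13 to 16 higher and 4 to 5 lower. All 9 members called at 2-fold or more kept their direction and call under every alternative that tested them, as did 17 of the 21 called members, and the exceptions were ABCC1, SLC22A13, SLC22A23 and SLCO4A1. ABCC1 and SLC22A13 also missed the threshold without a filter (adjusted p 0.0906 and 0.0634) and with the DESeq2 Wald test (0.0750 and 0.148), and none of the exceptions passed an adjusted p of 0.01. No member changed direction while called. With library totals 5727 genes were called higher and 1822 lower, against 3302 and 3313. The replicate numbers gave no sign of pairing, since deviations of same-numbered libraries correlated at -0.02 to -0.06 and 0 of 6 libraries correlated best with their own number, and the replicate block called 14 members higher and 5 lower. A library in which a gene had no read allows up to 3 counts, or 0.123 to 0.165 CPM, so a gene with no read is not shown to be absent. Intervals and this level cover counting error only.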
